A study of Brassica oleracea with 8 samples.

Results

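A set of 92 genes of *Brassica oleracea* was examined whose mean level was highest in TO1000, at least 2-fold lower in kale, and at least 2-fold lower again in cabbage. The genes were chosen on these same values. Identifiers starting with Bo were kept where every one of the 8 libraries held at least 3 counts and where the highest of the 3 morphotype means reached 5 CPM. Here CPM is the count of a gene per 1000000 counts of its library, after scaling of the totals by factors from the trimmed mean of M values (TMM), and it is not corrected for gene length. Of 60586 annotated features, 19724 passed the count and level minimums, and the set holds 0.466% of these. The rule leaves out 2 identifiers by name, of which 1 met its other thresholds. Because levels in all 3 morphotypes chose the genes, the levels and differences given below describe the set and test nothing.

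The study compared young shoots of *B. oleracea* morphotypes to find genes that set kale apart. Kale (labelled B. oleracea var. viridis) had 3 libraries, cabbage (var. sabadua) had 2 and TO1000 (var. alboglabra), a rapid cycling doubled haploid line, had 3. The study had sequenced another cabbage replicate and did not use it, because its reads were few and of poor quality. No treatment is named, and all 3 morphotypes were grown together under 10 h days. Upper stem with immature leaves and with apical and lateral meristems was taken 24 days after planting, and 8 plants were pooled for each library. At that age, by the study's account, cabbage had the fewest fully expanded leaves, kale more and TO1000 the most, in ranges that overlapped. Morphotype and stage of growth thus cannot be told apart. Each morphotype was a single accession, so that morphotype and accession cannot be told apart. The methods of the study give the kale as Red Winter of var. acephala and the cabbage as var. capitata, and the counts do not settle these names.

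Kale, cabbage and TO1000 are cultivated forms of a single species. Kale keeps an open shoot with separate leaves, cabbage forms a terminal leafy head, and TO1000 runs through its life cycle quickly and serves as the source of the reference genome. In bulk RNA of a shoot tip, a gene's count reflects the mixture of leaf primordia, young leaf, stem and meristem in the sample as well as the amount of transcript in each cell. Fewer cells of a type and less RNA per cell cannot be told apart in such libraries. The sources used here pair none of the 92 identifiers with a gene name, so the genes are described by identifier, level and position, and no role is given. In an identifier such as Bo7g023050, the digit before the g is the chromosome and the digits after it number the genes along it, while identifiers such as Bo01045s040 lie on a scaffold that is not placed on a chromosome.

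The 8 libraries held between 3016197 counts on genes (cabbage replicate 1) and 7539991 (kale replicate 1), so that 1 count was worth 0.36 CPM in the shallowest library and 0.136 to 0.238 CPM in the other libraries. TMM factors lay between 0.869 and 1.2. Markers of the sampled tissue were present in all morphotypes: 4 genes of leaf and organ primordia (ANT, YAB1, GRF3 and GRF4) summed to 29.5 to 46.1 CPM in kale, 97.2 to 100 CPM in cabbage and 90.2 to 101 CPM in TO1000. They are part of the 12 leaf development genes that the study names, of which 5 were called lower and 6 higher in kale than in TO1000. The floral meristem marker AP1, a gene of floral organ identity in Arabidopsis, had 5.23 to 6.7 CPM in kale, at most 0.167 CPM in cabbage and at most 0.147 CPM in TO1000. Kale replicate 3 stood apart from the other kale libraries for part of the set, and values are given with and without it.

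Most genes of the set were counted at low to moderate levels. Over the 92 genes, the median of the means was 6.25 CPM in kale, 2.1 CPM in cabbage and 21.8 CPM in TO1000. The means spread from 1.85 to 256 CPM in kale, from 0.79 to 68.2 CPM in cabbage and from 5.36 to 520 CPM in TO1000. A TO1000 mean of at least 100 CPM was found for 10 genes, and 19 genes had less than 10 CPM there. The counts behind the cabbage means were small. Their sum over both cabbage libraries had a median of 18 and lay between 6 and 501, and 22 genes had 10 counts or fewer there. Such genes sit close to the count minimum of the rule, so their cabbage level is known only coarsely.

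The median gene was 2.64-fold lower in kale than in TO1000 (2.01 to 25.4 over the set), 2.86-fold higher in kale than in cabbage (2.01 to 13.5), and 8.73-fold lower in cabbage than in TO1000 (4.07 to 65.8). The lower ends of the first 2 ranges are set by the rule. On the log2 scale of the fit, the median difference was -1.42 for kale minus TO1000, 1.55 for kale minus cabbage and -3.15 for cabbage minus TO1000, against 0, 0.06 and -0.02 over all 28126 genes tested. The step between kale and TO1000 made up a median of 48.9% of the whole log2 difference between cabbage and TO1000 (29.3% to 77.2%). Kale lay near the middle for many genes, since 38 had between 45% and 55% of the difference in that step. The rule asks for at least 2-fold at each step and so itself holds this share towards the middle. A kale mean at least 4-fold below the TO1000 mean was seen in 14 genes, and a kale mean at least 4-fold above the cabbage mean in 25. Only Bo4g061560, Bo7g023090 and Bo7g078440 had both.

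**Figure D1:**
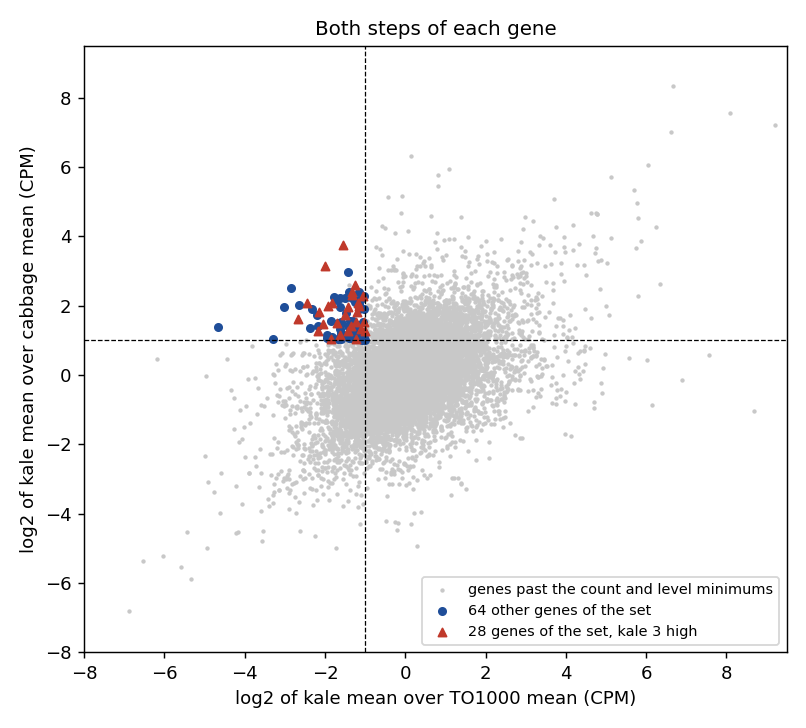
Each point is a gene, placed by the log2 of its kale mean over its TO1000 mean (horizontal axis) and the log2 of its kale mean over its cabbage mean (vertical axis), both from CPM. Grey points are the 19724 genes past the minimums, and the coloured points fill the corner beyond the dashed 2-fold lines that defines the set, with triangles for 28 genes in which kale replicate 3 was at least 2-fold above kale replicates 1 and 2.

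The same thresholds applied to the other 5 orders of the 3 morphotypes gave 116 genes for cabbage above kale above TO1000, 106 for kale above cabbage above TO1000, 63 for cabbage above TO1000 above kale, 58 for TO1000 above cabbage above kale and 57 for kale above TO1000 above cabbage. The count of the set depended on cabbage replicate 1, the shallowest library, because 201 genes met the rule without it. Of the 119 genes gained in that way, 22 had failed the count minimum in cabbage replicate 1.

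The 6 genes with the most counts in TO1000 were Bo7g080710, Bo7g078440, Bo2g022090, Bo8g117670, Bo7g023050 and Bo01107s010. Bo7g080710 had 252, 158 and 358 CPM in kale, 98.6 and 37.8 CPM in cabbage and 339, 718 and 504 CPM in TO1000. Its highest kale library thus lay above its lowest TO1000 library, while every kale library lay above both cabbage libraries. Its means were 256 ± 100 CPM in kale (SD, n = 3), 68.2 ± 43 CPM in cabbage (SD, n = 2) and 520 ± 190 CPM in TO1000 (SD, n = 3), which put kale 2.03-fold below TO1000.

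Bo7g078440 was much steadier between replicates. It had 40.5, 46 and 55.4 CPM in kale, 12.2 and 11.2 CPM in cabbage and 237, 364 and 287 CPM in TO1000, with no overlap between any groups. The log2 difference was -2.65 (standard error 0.2) for kale minus TO1000 and 2.02 (standard error 0.25) for kale minus cabbage. Bo2g022090 had 67.4, 44.4 and 49.5 CPM in kale, 6.48 and 22 CPM in cabbage and 243, 283 and 281 CPM in TO1000. Its groups did not overlap either, and its means were 53.8 ± 12.1 CPM in kale (SD, n = 3) and 14.2 ± 11 CPM in cabbage (SD, n = 2).

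Bo01107s010, on an unplaced scaffold, had 79, 39.6 and 59 CPM in kale, 31.7 and 25.2 CPM in cabbage and 150, 157 and 148 CPM in TO1000. The TO1000 libraries of this gene were close together, and kale lay 2.57-fold below TO1000 and 2.08-fold above cabbage. Bo8g117670 had 25.6, 30.3 and 70.6 CPM in kale, 23 and 12.2 CPM in cabbage and 180, 170 and 216 CPM in TO1000. Kale replicates 1 and 2 of Bo8g117670 lay just above cabbage replicate 1, and its kale mean of 42.2 ± 24.8 CPM (SD, n = 3) was carried largely by kale replicate 3. Bo7g023050 had 12.3, 25.1 and 147 CPM in kale, 5.4 and 3.67 CPM in cabbage and 99.1, 234 and 209 CPM in TO1000. In this gene kale replicate 3 was above TO1000 replicate 1, and the SD of the kale libraries, 74.2 CPM, was larger than their mean of 61.4 CPM.

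**Figure D2:**
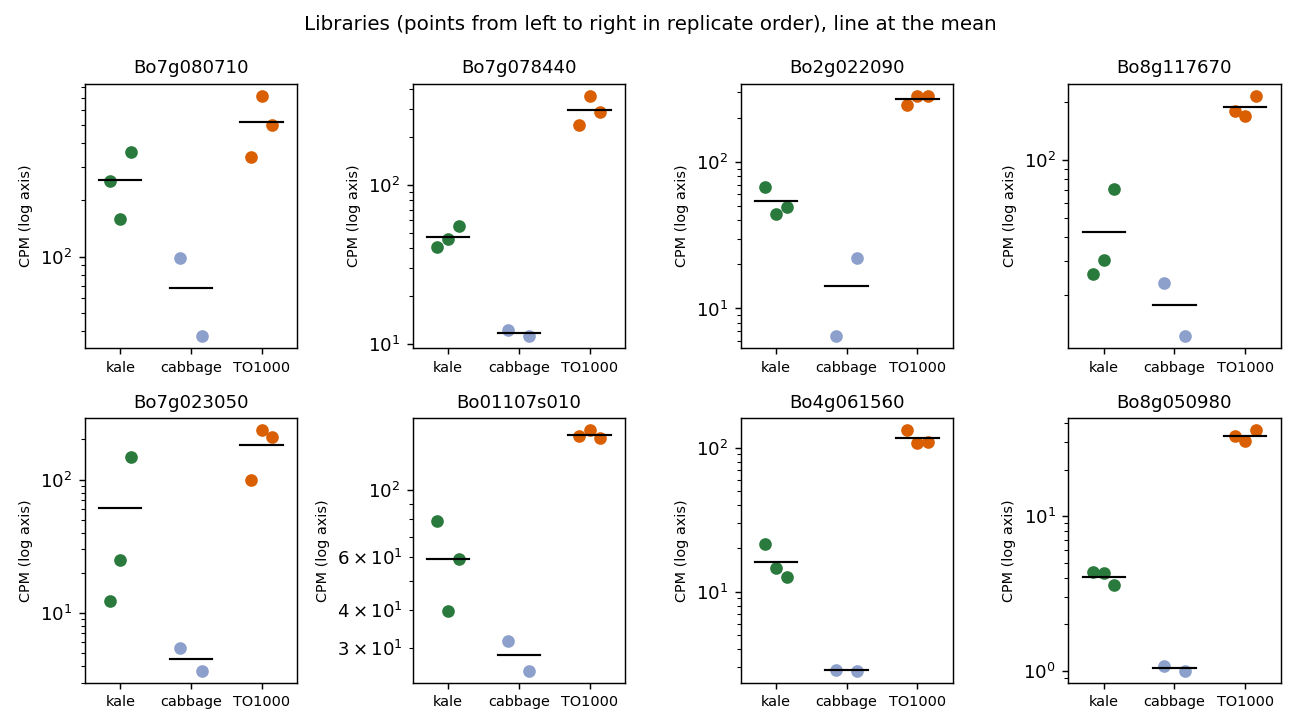
Levels in CPM (log axis, with its own range in each panel) of the 6 genes with the highest TO1000 means and of Bo4g061560 and Bo8g050980, with a point for each library of kale, cabbage and TO1000 and a line at each mean. Bo4g061560 and Bo8g050980 show tight groups far apart, while the kale points of Bo7g023050 spread from 12.3 to 147 CPM.

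The largest log2 differences between cabbage and TO1000 were those of Bo00805s040, Bo7g023050, Bo4g061560, Bo01045s040, Bo8g050980 and Bo7g078440. Bo00805s040 had 6.97, 4.46 and 5.71 CPM in kale, 3.24 and 1.17 CPM in cabbage and 16.4, 193 and 226 CPM in TO1000. Its TO1000 replicate 1 was more than 10-fold below the other TO1000 libraries, and yet above every kale and cabbage library. The cabbage minus TO1000 difference of this gene was -6.25 (standard error 0.95) on the log2 scale, and its kale minus cabbage difference of 1.6 (standard error 1.11) was not called.

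Bo4g061560 had 21.5, 14.6 and 12.6 CPM in kale, 2.88 and 2.83 CPM in cabbage and 132, 108 and 109 CPM in TO1000. No groups of Bo4g061560 overlapped, and kale lay 7.17-fold below TO1000 and 5.68-fold above cabbage. Bo8g050980 had 4.37, 4.28 and 3.57 CPM in kale, 1.08 and 1 CPM in cabbage and 32.7, 30.8 and 35.8 CPM in TO1000. It was the gene with the smallest spread within groups, the largest coefficient of variation being 10.8%, although its cabbage level rests on 9 counts. Its log2 difference was -4.98 (standard error 0.32) for cabbage minus TO1000. Bo01045s040 had 1.78, 1.96 and 19.3 CPM in kale, 1.08 and 0.667 CPM in cabbage and 18.6, 35.5 and 37.6 CPM in TO1000, so that kale replicates 1 and 2 were near cabbage and kale replicate 3 was within the TO1000 range.

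Other steady genes were Bo9g018060 and Bo3g010340. Bo9g018060 had 46.2, 39.1 and 41.4 CPM in kale, 19.4 and 17.3 CPM in cabbage and 80.1, 96.3 and 99.9 CPM in TO1000, and its kale level lay near the middle, with 48.4% of the log2 difference in the step between kale and TO1000. Bo3g010340 had 4.92, 7.13 and 6.18 CPM in kale, 2.88 and 2.67 CPM in cabbage and 11.9, 13.2 and 12.6 CPM in TO1000. For each gene of this pair no groups overlapped.

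Uneven steps were found in both directions. Bo00805s040, Bo9g154180 and Bo3g184990 had the largest share of the whole difference between TO1000 and kale, 77.2%, 76.2% and 64.4%. Bo9g154180 had 3.28, 2.5 and 1.19 CPM in kale, 1.44 and 0.833 CPM in cabbage and 31.8, 19.6 and 17.3 CPM in TO1000, and its lowest kale library was below its higher cabbage library. Bo3g184990 had 1.5, 2.14 and 1.9 CPM in kale, 1.08 and 0.667 CPM in cabbage and 7.36, 8.01 and 6.16 CPM in TO1000. In each of these 3 genes kale was closer to cabbage, and none had its kale minus cabbage difference called.

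At the other end stood Bo7g023050, Bo7g061690 and Bo3g013570, with 70.7%, 69% and 68.5% of the difference between kale and cabbage. Bo7g061690 had 4.1, 2.85 and 6.9 CPM in kale, 1.08 and 0.833 CPM in cabbage and 12.1, 8.01 and 8.07 CPM in TO1000. Bo3g013570 had 6.02, 5.88 and 14 CPM in kale, 1.08 and 2.5 CPM in cabbage and 13, 21.2 and 19.4 CPM in TO1000. Kale replicate 3 was the highest kale library in all 3 genes, and in Bo7g023050 and Bo3g013570 it exceeded the lowest TO1000 library.

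Differential expression was fitted with edgeR's quasi-likelihood method over 28126 genes, and a gene was called at a Benjamini-Hochberg adjusted p under 0.05 and a log2 difference beyond 1. Since the same contrasts chose the set, the following counts only show how far the replicates separated its genes. Of the 92 genes, 88 were called lower in kale than in TO1000 (13.5% of all genes tested were), 65 were called higher in kale than in cabbage (14.7% of all genes tested) and 92 were called lower in cabbage than in TO1000 (14.8%). All 3 calls were made for 64 genes, against 0.789% of all genes tested. Without cabbage replicate 2, the count was 27 genes for kale against cabbage and 27 for all 3 comparisons, while the counts over all genes tested were 3015 in place of 4124 and 99 in place of 222. With glmTreat, which tests against a 2-fold change, 28 genes were called between kale and TO1000, 23 for kale against cabbage and 10 in all 3. Over all genes tested, glmTreat called 1938, 1936 and 46 in the directions of the set. The 4 genes not called between kale and TO1000 were Bo3g061790, Bo6g064950, Bo7g049880 and Bo00616s020. In the first 3 of these, kale replicate 3 was more than 3-fold above the other kale libraries. In Bo00616s020, with 21.6, 10.7 and 16.6 CPM in kale, 3.96 and 3.17 CPM in cabbage and 8.61, 41.2 and 54.9 CPM in TO1000, TO1000 replicate 1 was the low library.

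Every TO1000 library was above every cabbage library in all 92 genes (32.3% of all genes tested). Every TO1000 library was above every kale library in 74 genes (25.4% of all genes tested), and every kale library was above both cabbage libraries in 75 (31%). The whole order held without overlap in 66 genes, against 3.22% of all genes tested. In the other 26 genes the groups overlapped at least once, and in 9 of them at both steps. In all 9, kale replicate 3 was at least 2-fold above both other kale libraries, called a high kale replicate 3 in what follows.

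The kale libraries of many genes of the set were far apart. In 28 of the 92 genes (30.4%) kale replicate 3 was at least 2-fold above both other kale libraries, against 1.64% of the genes past the minimums. Kale replicate 1 was so placed in 0 genes of the set and kale replicate 2 in 1. These 28 genes were singled out after their values were seen. The corresponding share was 2.59% in the 116 genes of the opposite order and 19% in the 58 genes with TO1000 highest and kale lowest. It was 7.94%, 0.943% and 0% in the orders cabbage above TO1000 above kale, kale above cabbage above TO1000, and kale above TO1000 above cabbage. Because the rule uses the mean of the kale libraries, a gene can enter the set through kale replicate 3 alone.

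In the 28 genes the median levels were 3.08, 2.94 and 14.1 CPM in kale replicates 1 to 3, 2.52 and 1.67 CPM in the cabbage replicates and 16.4, 28.3 and 29 CPM in the TO1000 replicates. In the median, kale replicates 1 and 2 were thus close to cabbage, and kale replicate 3 close to TO1000. This placement follows in part from how the genes were chosen, by their kale mean and their high kale replicate 3. Kale replicate 3 was 3.25-fold above the higher of the other kale libraries in the median (2.01 to 9.82). It lay within 2-fold of the TO1000 mean in 23 of the 28 genes and at or above the lowest TO1000 library in 14. In 19 of the 28, kale replicates 1 and 2 were both less than 2-fold above the higher cabbage library. In the 64 other genes of the set, these 3 counts were 14, 3 and 14.

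**Figure D3:**
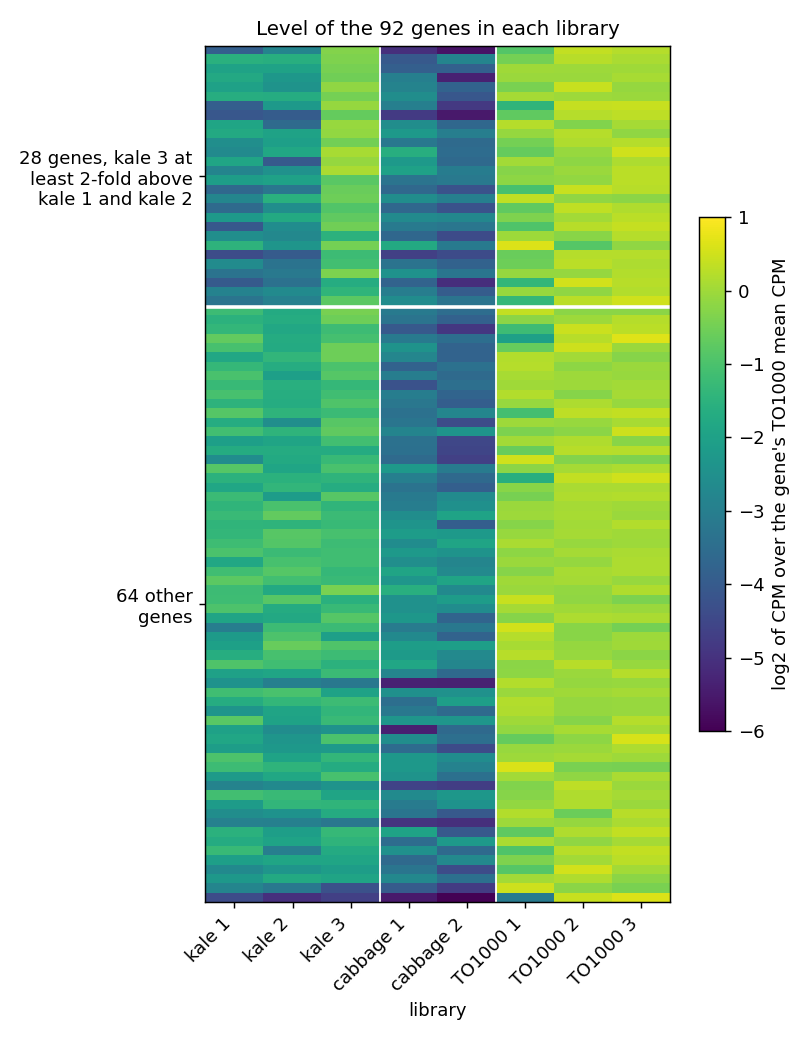
Each row is a gene of the set and each column a library of kale, cabbage or TO1000, coloured by the log2 of its CPM over the gene's TO1000 mean. In the upper block of 28 genes kale replicate 3 has the colour of the TO1000 columns more than that of kale replicates 1 and 2, and in the lower block of 64 genes no kale column stands out in this way, although 8 of these genes overlap between groups.

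The 64 other genes had medians of 5.67, 6.06 and 6.78 CPM in kale, 2.34 and 2 CPM in cabbage and 17.9, 18.7 and 19.3 CPM in TO1000. The genes were divided by the spread of their kale libraries, so the next values describe that division. The median biological coefficient of variation from the fit was 0.36 in the 28 genes, 0.194 in the 64 and 0.184 over all genes tested. All 3 calls were made for 14 of the 28 genes and for 50 of the 64. The whole order held without overlap in 10 of the 28 and in 56 of the 64. When kale replicate 3 was left out and the rule was applied again, 56 of the 64 genes and 10 of the 28 still met it, and 43 of the 64 and 8 of the 28 were called in all 3 comparisons, as were 207 genes of all those tested in that fit.

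Bo01045s040 was the extreme case, with kale replicate 3 at 9.82-fold above the higher of the other kale libraries. Next came Bo7g023090, which had 2.19, 2.85 and 20 CPM in kale, 1.8 and 2.17 CPM in cabbage and 30.1, 53.5 and 53.4 CPM in TO1000. Bo6g103980 followed with 0.957, 1.07 and 7.37 CPM in kale, 1.8 and 1 CPM in cabbage and 8.92, 8.96 and 11 CPM in TO1000. In Bo6g103980 kale replicates 1 and 2 were below cabbage replicate 1, so that its place above cabbage rests on kale replicate 3. The same held for Bo3g061790, with 6.02, 7.85 and 46.4 CPM in kale, 10.8 and 5.17 CPM in cabbage and 35.8, 41.3 and 51.6 CPM in TO1000. Bo1g091610 had 1.78, 2.32 and 14.7 CPM in kale, 1.8 and 1.17 CPM in cabbage and 10.8, 29.5 and 26.4 CPM in TO1000, and Bo5g005090 had 2.19, 2.85 and 12.8 CPM in kale, 3.6 and 2.17 CPM in cabbage and 8.61, 26.1 and 30.2 CPM in TO1000. In this last pair of genes kale replicate 3 was above TO1000 replicate 1 while at least 1 other kale library lay below cabbage replicate 1.

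A milder form was seen where all kale libraries cleared cabbage. Bo3g184610 had 15, 14.8 and 43 CPM in kale, 3.96 and 4 CPM in cabbage and 58.4, 57.7 and 58.8 CPM in TO1000. Bo8g102180 had 5.47, 4.81 and 11.2 CPM in kale, 2.52 and 1.5 CPM in cabbage and 31.5, 27 and 37.1 CPM in TO1000. In each of these the groups did not overlap, and kale replicates 1 and 2 alone still lay between cabbage and TO1000. Of 11 markers of leaf photosynthetic tissue, primordia, epidermis and trichome, and floral meristem, 0 had kale replicate 3 at least 2-fold above the other kale libraries. The share was 1.64% of the genes past the minimums, so a count of 0 in so few genes shows little. The summed primordium markers had 46.1, 41.6 and 29.5 CPM in kale replicates 1 to 3. Whether tissue composition had a part in the spread of the 28 genes was not tested.

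Cabbage and TO1000 also had libraries that were often far apart. Cabbage replicate 1 was at least 2-fold above cabbage replicate 2 in 23 genes of the set (25%), against 3.18% of the genes past the minimums, and the opposite was seen in 4 genes (4.35%, against 2.82%). With only 2 cabbage libraries, it cannot be told which of them departed. At 3 counts, the minimum of the rule, cabbage replicate 1 already stands above 1 CPM, while cabbage replicate 2 can reach 0.5 CPM. Bo3g100890 was an example with more counts, at 13.9, 9.81 and 33.3 CPM in kale, 6.12 and 1.17 CPM in cabbage and 46, 46.5 and 50.9 CPM in TO1000. TO1000 replicate 1 was at least 2-fold below both other TO1000 libraries in 12 genes (13%). The share was 1.19% in the genes past the minimums and 7.76% in the 116 genes of the opposite order. Of the 12 genes of the set, 6 also had a high kale replicate 3. Bo1g004730 had an even kale level, with 5.06, 4.99 and 5.23 CPM in kale, 1.8 and 1.17 CPM in cabbage and 4.7, 18.2 and 20 CPM in TO1000. There TO1000 replicate 1 was level with kale.

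**Figure D4:**
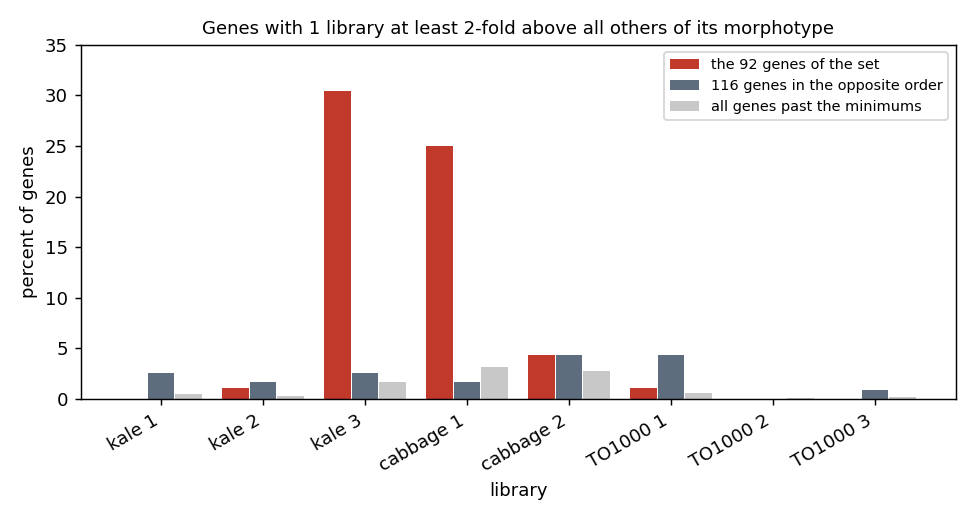
Bars give the percent of genes (vertical axis) in which the named library of kale, cabbage or TO1000 was at least 2-fold above every other library of its morphotype. In the 92 genes of the set the bars of kale replicate 3 (30.4%) and cabbage replicate 1 (25%) stand out, against 1.64% and 3.18% of all genes past the minimums. With 2 cabbage libraries, a high cabbage replicate 1 is the same as a low cabbage replicate 2.

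The rule was also applied to 7 libraries at a time, and the library left out was then read in the genes so chosen. Without TO1000 replicate 3, 87 genes were chosen and the library left out was past the 2-fold step in 78 of them (89.7%). For TO1000 replicates 2 and 1 the values were 76 of 94 (80.9%) and 61 of 103 (59.2%). Cabbage replicate 2 lay at least 2-fold below kale in 69 of 95 genes (72.6%) and cabbage replicate 1 in 81 of 201 (40.3%). A kale library had to clear both steps, and did so in 41 of 94 genes (43.6%) for kale replicate 1, in 45 of 91 (49.5%) for kale replicate 2 and in 39 of 83 (47%) for kale replicate 3. The failures differed in kind, which follows in part from the choice, since the kale libraries that were kept chose the genes. Kale replicate 3 was among those kept whenever kale replicate 1 or 2 was left out. Kale replicate 3 was above the 2-fold step towards TO1000 in 35 genes and less than 2-fold above cabbage in 9, whereas kale replicates 1 and 2 were too close to TO1000 in 13 and 7 genes and too close to cabbage in 40 and 39.

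By identifier, chromosome 3 held the most genes of the set, 19 (20.7%, against 16.1% of the genes past the minimums). Chromosomes 7 and 8 held 11 each (12%), chromosome 9 held 10, chromosome 4 held 9, chromosomes 2 and 5 held 6 each, chromosome 1 held 5 and chromosome 6 held 4. Unplaced scaffolds held 11 genes, which was 12% of the set and 2.45% of the genes past the minimums. Positions are read from the identifiers alone, and no coordinates were used here.

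The closest neighbours lay on chromosome 7, where 5 genes of the set fell among the 13 consecutive identifiers from Bo7g022980 to Bo7g023100. This stretch was picked after its values were seen. Bo7g022980 had 7.52, 15.2 and 48.5 CPM in kale, 7.2 and 4.83 CPM in cabbage and 55.3, 114 and 102 CPM in TO1000. Its direct neighbour Bo7g022990 had 4.1, 2.5 and 11.7 CPM in kale, 2.52 and 1.83 CPM in cabbage and 17.5, 30.4 and 27.9 CPM in TO1000. Bo7g023040 had 3.42, 4.81 and 14.3 CPM in kale, 2.16 and 1.67 CPM in cabbage and 14.4, 22.5 and 23.2 CPM in TO1000, and is followed directly by Bo7g023050. In all 4 genes, and in Bo7g023090, kale replicate 3 was the high kale library and TO1000 replicate 1 the lowest TO1000 library.

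The stretch held 10 genes with enough counts to be tested, 5 of them outside the set. Of these 5, 4 had a high kale replicate 3 and 4 had their means in the order of the set (19% of all genes tested). In the stretch and scaffolds, a high kale replicate 3 also needed at least 3 counts in that library. The share over all genes tested, 6.45%, was taken without this minimum. It includes genes with 0 counts in every kale library, so the 2 measures are not alike. TO1000 replicate 1 was the lowest TO1000 library in all 10 genes, and at least 2-fold below both others in 4 of them. The share of all genes tested in which it was the lowest was not counted. Bo7g023000 was at 0.547, 1.07 and 6.18 CPM in kale, 0.72 and 1.33 CPM in cabbage and 3.91, 9.51 and 9.68 CPM in TO1000, and failed only the count minimum, with 2 counts in cabbage replicate 1. Bo7g023060 broke the order, with 3.83, 3.21 and 9.04 CPM in kale, 13 and 10.3 CPM in cabbage and 13.6, 15.8 and 13.9 CPM in TO1000, although its kale replicate 3 was again the high one.

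**Figure D5:**
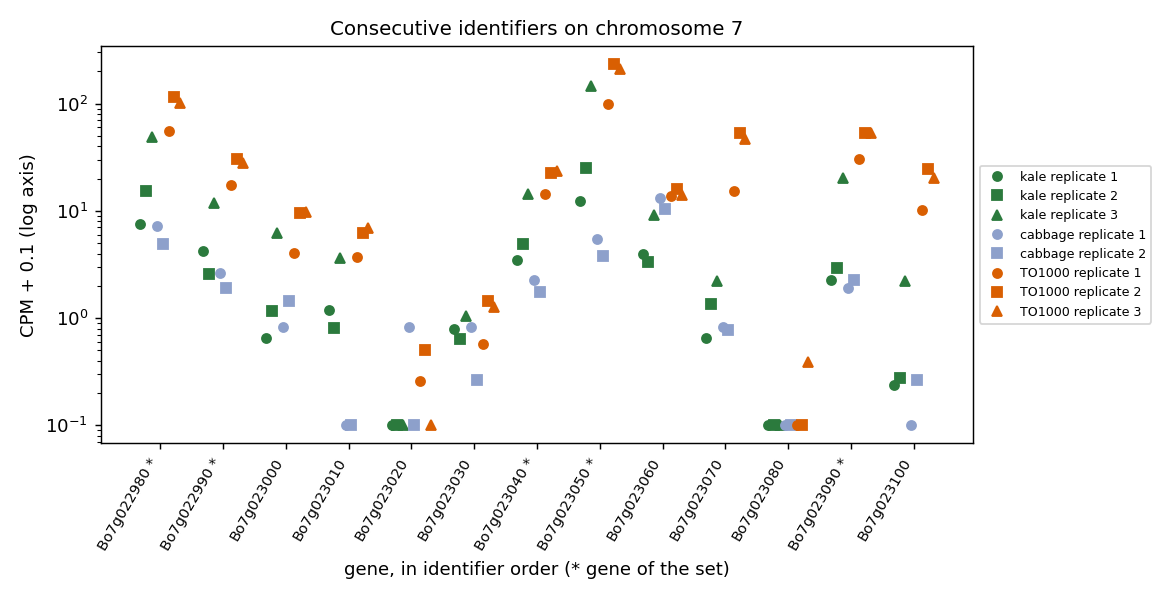
Levels (CPM + 0.1, log axis) of the 13 genes from Bo7g022980 to Bo7g023100 in identifier order, with colours for kale, cabbage and TO1000, symbols for replicates and a star at the 5 genes of the set. Kale replicate 3 (green triangles) lies above kale replicates 1 and 2 in the 10 genes tested, and TO1000 replicate 1 (orange circles) lies below the other TO1000 points in the same genes.

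Some scaffolds held several such genes. On scaffold Bo01045, which carries 7 annotated genes and Bo01045s040 and Bo01045s070 of the set, the 4 other genes tested all had a high kale replicate 3 and means in the order of the set. Bo01045s070 had 0.957, 2.67 and 11.2 CPM in kale, 1.8 and 1.67 CPM in cabbage and 8.45, 18.9 and 20.7 CPM in TO1000. On scaffold Bo00673 the 13 tested genes outside the set all had their means in the order, and 10 of them had a high kale replicate 3. Of its 2 genes of the set, Bo00673s120 had 2.46, 3.74 and 12.4 CPM in kale, 2.88 and 1.17 CPM in cabbage and 15.3, 56.2 and 46.9 CPM in TO1000. Bo00673s190 had 40.2, 35.3 and 59.2 CPM in kale, 11.9 and 7.5 CPM in cabbage and 105, 124 and 106 CPM in TO1000, with no overlap between groups. On scaffold Bo00616 only 2 of the 7 tested genes outside the set had a high kale replicate 3 and 2 had means in the order. There TO1000 replicate 1 was the lowest TO1000 library in all 9 genes tested, and at least 2-fold below both others in 5. It was also the lowest in 5 of 6 genes tested on Bo01045 and in 14 of 15 on Bo00673. On these it was at least 2-fold below both others in 3 and 7 genes. The share of all genes tested was not counted for either measure. The scaffolds were picked after their values were seen. Neither gene of the set on Bo00616, Bo00616s020 or Bo00616s130, had a high kale replicate 3. Bo00616s130 was at 20.6, 15.3 and 23.3 CPM in kale, 3.24 and 1.83 CPM in cabbage and 23.3, 72 and 64 CPM in TO1000.

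Some genes lay very near the 2-fold limits. Just inside the step between kale and TO1000 were Bo7g049880 (2.012-fold lower in kale) and Bo3g061660 (2.016-fold), and just outside were Bo7g054590 (1.988-fold) and Bo8g112350 (1.983-fold). Just inside the step between kale and cabbage were Bo9g028850 (2.009-fold higher in kale) and again Bo3g061660 (2.018-fold), and just outside were Bo2g005280 (1.997-fold) and Bo1g038910 (1.992-fold). Bo7g054590 had more counts than most genes of the set, with means of 70.3 CPM in kale, 31.4 CPM in cabbage and 140 CPM in TO1000. Bo3g061660 had only 2.32, 1.6 and 4.04 CPM in kale, 1.8 and 0.833 CPM in cabbage and 5.17, 4.89 and 6.01 CPM in TO1000, and its kale and cabbage libraries overlapped.

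No gene of the set was among the 81 genes that the study names for shoot branching, leaf development, trichomes and epidermis, flowering time, glucosinolates and defense, and nutrients. The rule leaves out 2 of the 81 by name, and 1 of these met its other thresholds. The absence is thus partly set by the rule. Of the 81, 76 were tested, and 26 were called lower and 49 higher in kale than in TO1000. Between kale and cabbage, 48 were called higher in kale and 26 lower. The study chose these genes on the same libraries, so the counts are no independent evidence. Only 3 of the 76 had their means in the order of the set, and all 3 were called in each comparison in that direction. They were the AXR1 copy Bo8g115290, which had 1.91, 1.78 and 0.476 CPM in kale, 0 and 0.167 CPM in cabbage and 12.7, 7.33 and 8.07 CPM in TO1000, and the 2 genes that the rule leaves out, which are not described here. AXR1 in Arabidopsis acts in the activation of a ubiquitin-like protein needed for auxin response. Bo8g115290 had 0 counts and 1 count in the cabbage libraries and so failed the count minimum. Its highest kale library was kale replicate 1, and its groups did not overlap.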

How the data were processed

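RNA was sequenced from young shoots of kale (3 libraries), cabbage (2) and TO1000 (3), with 8 plants pooled per library. Libraries were grouped by their labels, which describe biological replicates, each a separate pool of plants. The authors made cDNA from polyadenylated RNA without DNase treatment, amplified it by PCR, trimmed the reads with Cutadapt 2.4, aligned them in 2 passes of STAR to the TO1000 genome and deposited unnormalized read counts per gene. All morphotypes were mapped to the genome of TO1000, so a lower level in kale or cabbage and a poorer match of their reads to that genome cannot be told apart. No molecular identifiers are named, so PCR copies are counted as reads. Whether counting used strand is not given in the sources used here, and reads of overlapping or near-identical genes could have been shared between them.

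Genes with enough counts by filterByExpr (minimum count 10, minimum total 15) were tested with the quasi-likelihood method of edgeR 4.0.16 in R 4.3.3. All 8 libraries entered 1 fit, scaled by TMM, and morphotype was its sole factor. Tests were two-sided, with the Benjamini-Hochberg adjustment over 84378 tests of 28126 genes in 3 comparisons, and standard errors were taken from the log2 difference and the F statistic. The procedure was tested on simulated data. Scaling factors, minimums, folds, medians, DESeq2 1.42.0, no filter, other call rules, a replicate block and leaving out each library were tried as alternatives, and TMM factors from all features, other library totals and a kale mean without replicate 3 were added after seeing the data. The genes, lists and rules for naming genes were chosen with earlier results of these data known. Named are the 6 genes with the highest TO1000 means, the 6 with the largest difference between cabbage and TO1000, the 3 most uneven at each step, the 3 steadiest, consecutive identifiers, those nearest the limits and listed genes in the order of the set. The other genes were named after their values were seen. The smallest count total allowed in cabbage was 6, and counting error alone is large there. Replicate pairs differed by more than sampling noise (chi-square per gene of 5.74 or more), so none was merged. Identifiers were looked up in a RefSeq table of 53125 genes, and 0 of the 92 matched.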

Additional observations from a re-analysis of the deposited data

How the results depend on the processing

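The number of genes in the set followed its limits: 153 with a minimum count of 1, 32 with a minimum count of 10, 376 with steps of 1.5-fold and 15 with steps of 3-fold. Leaving out each library in turn gave 83 (without kale replicate 3) to 201 genes (without cabbage replicate 1). The other scaling factors, level minimums, library totals, the medians of libraries and a kale mean of replicates 1 and 2 gave 73 to 125 genes, within 1.5 times 92, and the last of these gave 78, of which 62 were in the set.

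With glmTreat against a 2-fold change, 28 genes of the set were called between kale and TO1000, 23 for kale against cabbage, 91 for cabbage against TO1000 and 10 in all 3 comparisons. The counts over all genes tested in the directions of the set were then 1938, 1936, 1898 and 46, against 3784, 4124, 4159 and 222 in the reported fit. With the false discovery rate alone they were 5723, 5751, 5528 and 376, and without cabbage replicate 2 the last 2 were 2563 and 99. Leaving out each library gave 71 to 89 genes called between kale and TO1000, 27 to 67 for kale against cabbage, 82 to 92 for cabbage against TO1000 and 27 to 61 in all 3, with the low values of the last 3 without cabbage replicate 2. Over all genes tested these ranges were 3242 to 4295, 3015 to 4142, 2563 to 4545 and 99 to 218. The lone cabbage library is then assumed to vary like the other groups. The order held without overlap in 66 to 74 genes. The count was read in the same genes each time, so leaving out a library could not lower it below 66. With the replicate number as a block, 91, 60, 92 and 59 genes of the set were called, and 3779, 3767, 3765 and 204 of all genes tested. With DESeq2 these were 75, 54, 92 and 47 genes of the set and 3443, 3727, 3770 and 162 of all. Same-numbered libraries correlated at -0.115 to 0.196 in their deviations from the group means, and other pairs at -0.174 to 0.174. With 2 cabbage libraries their deviations are mirror images, so this check cannot decide whether the numbers pair the samples. For the genes named by rule, including those just outside the limits, 73 calls were lost, 23 were gained and 0 reversed over all alternatives. In 1152 cases the result stayed the same. With DESeq2 the kale minus TO1000 calls of Bo7g023050 and Bo7g080710 were among those lost, while Bo7g078440 lost 0 calls. Genes named after their values were seen were not followed in this way. In cabbage a sum of 18 counts in the median limits what the depth can show.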
